A study of Mus musculus with 8 samples.

Results

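Pseudogenes are the subject here: of the 12057 genes of a pseudogene type that have an exon ID in the files of 8 mouse oocyte libraries, 1173 held 80 or more counts over all 8 libraries together and were chosen by that total, so their level was used to select them and is only described. By the types of GENCODE M21 (mm10), 999 of the members are processed, 158 unprocessed and 16 of other types. The oocytes were fully grown germinal vesicle (GV) oocytes of at least 70 µm from C57BL/6 females, given as 20 days old in one label and as 3 weeks old in another. The females had received 5 IU of the gonadotropin PMSG 48 hours before, and the oocytes were released into M2 medium with milrinone, which holds meiosis. Control oocytes were Kiaa1429F/+;Zp3-Cre and knockout (cKO) oocytes were Kiaa1429F/F;Zp3-Cre. Both groups therefore carried Cre under the oocyte promoter of Zp3, and controls could lose 1 copy of Kiaa1429 in the oocyte. Each group had 4 libraries of about 20 oocytes, and the labels do not tie libraries to animals, so p-values measure only the spread between these libraries, which may be technical. Kiaa1429, now named Virma, is a scaffold of the m6A methyltransferase, the enzyme complex that places N6-methyladenosine on RNA.

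A processed pseudogene is a copy of an mRNA that was reverse transcribed and inserted elsewhere in the genome, usually without introns and without its own promoter. An unprocessed pseudogene arose by duplication of a gene and keeps introns, and a unitary pseudogene is a gene that decayed in place. Mouse oocytes are known for endogenous small interfering RNAs (endo-siRNAs), which Dicer cuts from double-stranded RNA formed by inverted repeats of pseudogenes or by a pseudogene transcript paired with the mRNA of its parent. Because a pseudogene resembles its parent gene, reads of one can be assigned to the other. The degree of resemblance is given for some of the members named below, and its absence does not mean that a member is free of this limit. The parent is here the protein-coding gene whose transcript gave the best match to the exonic sequence of the member, over at least 100 aligned bases. A parent was found for 984 processed, 151 unprocessed and 9 other members.

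The deposited counts on exon IDs that mapped to genes were 4235691 to 4775924 in control libraries and 4389576 to 5052551 in cKO libraries. Virma stood at 61, 71.6, 57.1 and 82 CPM (counts scaled by the library's total and its TMM factor) in the control libraries and at 18.6, 24.2, 17.8 and 17 CPM in the cKO libraries (log2 fold change -1.81, SE 0.18, adjusted p = 1.02e-06), so each library went with its label. The sources used here do not say which exons are floxed, so counts outside them check the label only in part. All 10 oocyte markers held counts and 5 of them fell (50.0%, beside 27.9% of all tested genes), while none rose. They summed to 36876 to 49919 CPM in control and 19156 to 23233 CPM in cKO libraries, and Bmp15 and Gdf9 were the most abundant of them. The 10 cumulus and granulosa markers summed to between 198 and 353 CPM in controls and to between 399 and 676 CPM in the cKO. Of 7 tested, 3 rose and 2 fell (42.9% and 28.6%, beside 27.0% and 27.9% of all tested genes), and none was at 0 in every library. The 8 immune and blood markers had a summed level of 343 to 417 CPM per control library and 358 to 466 CPM per cKO library. Nearly all of this was C1qb, which was not called (control mean 377 ± 34.5 CPM, cKO mean 384 ± 49.8 CPM, SD, n = 4 each, log2 fold change 0.03, adjusted p = 0.868). C1qa rose from 0.177 ± 0.217 to 7.003 ± 1.64 CPM (SD, n = 4 each, log2 fold change 5.07, adjusted p = 1.4e-06 by the edgeR quasi-likelihood test), and Cd68 held 17 counts in all. Ptprc, Adgre1, Cd74, Hbb-bs and Hba-a1 were listed at 0 in every library, as were genes of general use such as Rpl12, so a 0 in these files does not show that a transcript was absent. Reads that met several exon IDs were set apart as ambiguous, 72.9% to 75.4% of control reads and 78.8% to 80.4% of cKO reads, without overlap. Reads outside every exon ID made up 11% ± 0.883 of control reads and 5.77% ± 0.531 of cKO reads (SD, n = 4 each). What part the markers of other cells, the ambiguous reads and the reads outside exon IDs have in the changes of pseudogenes was not tested. All levels are relative to the library, and fewer transcripts of one kind in each oocyte cannot be told apart from fewer oocytes that express them.

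The sequences below show why the mapping limit differs between members. Each is a stretch of 90 bases of the coding sequence of the parent, followed by the aligned stretch of the pseudogene, read 5′ to 3′ from the GENCODE M21 transcripts, with capitals where the pseudogene differs from the parent.

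Gm15681, in an intron of Cdh8 on chromosome 8, is the pseudogene of Ppp4r1, whose locus is a known source of oocyte endo-siRNAs. Over bases 104 to 193 of the Ppp4r1 coding sequence it differed at 8 positions (chr8:99147999-99148088, minus strand).
Ppp4r1: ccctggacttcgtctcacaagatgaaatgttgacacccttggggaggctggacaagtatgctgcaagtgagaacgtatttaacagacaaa
Gm15681: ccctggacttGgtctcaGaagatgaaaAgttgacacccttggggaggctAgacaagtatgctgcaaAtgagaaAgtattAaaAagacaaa

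Gm7162 (chr17:12820123-12820212, minus strand) and Gm16574 (chr17:12818824-12818913, plus strand) are pseudogenes of Rangap1 that lie on opposite strands with a gap of 281 bases. They are shown because a transcript across such an inverted pair can fold back on itself. Each differed from bases 640 to 729 of the Rangap1 coding sequence at 10 positions.
Rangap1: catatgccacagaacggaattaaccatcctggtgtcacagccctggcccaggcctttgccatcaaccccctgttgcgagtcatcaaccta
Gm7162: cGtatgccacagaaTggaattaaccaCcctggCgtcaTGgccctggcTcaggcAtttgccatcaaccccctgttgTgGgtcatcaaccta
Gm16574: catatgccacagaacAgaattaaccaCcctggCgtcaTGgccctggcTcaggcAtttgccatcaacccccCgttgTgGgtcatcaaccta

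Different grades of divergence from Gapdh stand beside each other in Gm9114 (chr7:31744262-31744351, plus strand), Gm8609 (chr16:39934076-39934165, plus strand) and Gm13394 (chr2:28934453-28934542, minus strand). Over bases 68 to 157 of the Gapdh coding sequence they differed at 8, 11 and 0 positions, so a read from this stretch of Gm13394 could not be placed by its letters.
Gapdh: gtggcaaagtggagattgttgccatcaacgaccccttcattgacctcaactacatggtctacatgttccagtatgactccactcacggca
Gm9114: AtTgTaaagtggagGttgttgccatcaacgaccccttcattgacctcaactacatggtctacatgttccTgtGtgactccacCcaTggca
Gm8609: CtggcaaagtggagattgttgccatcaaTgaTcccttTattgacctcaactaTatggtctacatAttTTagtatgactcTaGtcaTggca
Gm13394: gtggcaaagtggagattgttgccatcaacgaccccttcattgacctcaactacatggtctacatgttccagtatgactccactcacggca

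Gm5434 (chr12:36090482-36090571, plus strand), which had the largest fall among the 10 members of highest mean, differed from the first 90 bases of the Ube2f coding sequence at 8 positions.
Ube2f: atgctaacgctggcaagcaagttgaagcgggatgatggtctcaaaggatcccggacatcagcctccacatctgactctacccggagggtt
Gm5434: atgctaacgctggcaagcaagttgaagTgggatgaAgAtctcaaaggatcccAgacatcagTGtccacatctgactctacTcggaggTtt

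Gm14576 (chrX:40927854-40927943, minus strand), which had the largest rise among members with a mean of at least 100 CPM, differed from bases 366 to 455 of the Zpr1 coding sequence at 18 positions.
Zpr1: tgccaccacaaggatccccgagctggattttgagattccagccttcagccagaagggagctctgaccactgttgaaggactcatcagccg
Gm14576: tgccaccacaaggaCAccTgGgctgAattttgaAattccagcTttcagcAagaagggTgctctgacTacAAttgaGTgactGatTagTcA

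Gm6741 (chr17:91236811-91236900, plus strand) also rose, but it differed from the Nanp coding sequence at 0 of these 90 positions.
Nanp: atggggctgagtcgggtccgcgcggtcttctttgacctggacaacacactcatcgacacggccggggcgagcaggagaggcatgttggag
Gm6741: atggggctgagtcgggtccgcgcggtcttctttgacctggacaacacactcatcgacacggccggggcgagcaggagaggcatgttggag

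Control and cKO oocytes were compared member by member to ask how pseudogene RNA differs when the second copy of Virma is lost in the oocyte. Of the 1147 members with enough counts for the fit, the cKO had 213 at a higher and 292 at a lower level by the edgeR quasi-likelihood test at a Benjamini-Hochberg adjusted p under 0.05, which is 44.0% of them. Over all 10673 tested genes the share called was 54.9%, 27.0% higher and 27.9% lower, so the share of members called was below the background. The median log2 fold change was 0.03 over the members and 0.02 over all tested genes. The values of the 4 control and the 4 cKO libraries did not overlap for 476 of the 1173 members, and for 41.1% of the tested ones against 50.1% of all tested genes. The other 26 members fell under the filter on low counts and were not tested.

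Processed and unprocessed members differed in these counts. Among 978 tested processed members 181 (18.5%) were higher and 217 (22.2%) lower, with a median log2 fold change of 0.06. Among 153 tested unprocessed members 28 (18.3%) were higher and 67 (43.8%) lower, with a median of -0.35. Members whose type carries the word transcribed, which marks a locus with transcript evidence, were lower in 41 of 89 cases and higher in 10, against 251 lower and 203 higher of the 1058 others. Within processed members the transcribed type had 20 lower and 6 higher of 44, and within unprocessed members it had 20 lower and 3 higher of 42. These are counts side by side, and no test of the difference between classes was made.

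**Figure D1:**
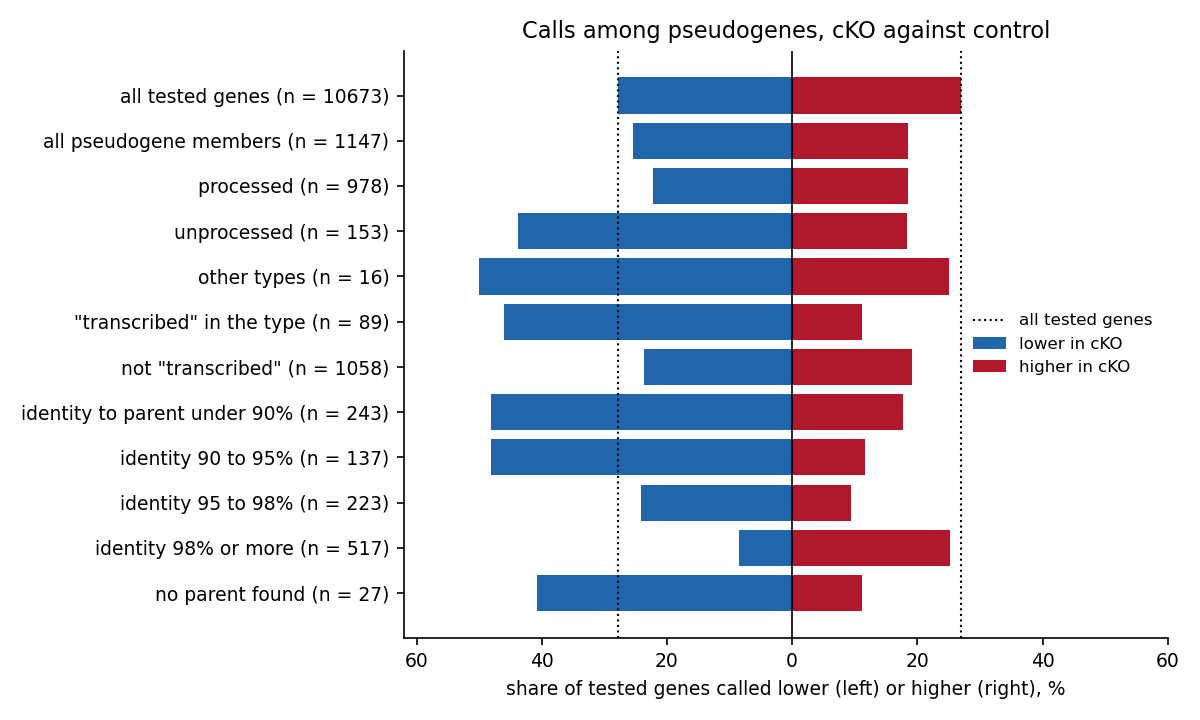
Share of tested genes called lower (left, blue) or higher (right, red) in the cKO for all tested genes and for sets of pseudogenes, in percent, with dotted lines at the shares of all tested genes. The bar of lower calls is longer than the background for unprocessed members (43.8%) and for members under 95% identical to the parent (48.1% and 48.2%), and shortest for members of 98% identity or more (8.51%).

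As a share of all gene counts, processed members took 3.29% ± 0.146 in controls and 2.95% ± 0.0583 in the cKO, and unprocessed members 0.768% ± 0.0894 and 0.513% ± 0.0493 (SD, n = 4 each). The processed share ranged from 3.16% to 3.47% in controls and from 2.88% to 3.01% in the cKO, and the unprocessed share from 0.637% to 0.831% and from 0.461% to 0.574%, so neither pair of groups overlapped. Gm1821, Gm15681, Gm5434, Nlrp4g and Gm5514, the 5 members of most counts, made up 0.827% ± 0.102 of gene counts in controls and 0.443% ± 0.0426 in the cKO. The processed members other than these took 2.59% ± 0.167 in controls and 2.57% ± 0.0479 in the cKO, which differ by less than the spread between libraries. Over all 8 libraries the 10 members of most counts held 26.1% of the counts of processed members, and 54.9% among unprocessed members. Totals per member ran from 80 to 77720 with a median of 308.

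Members below 95% identity to the parent were more often lower than members above it, and higher calls outnumbered lower ones in the range of 98% or more. Of 243 tested members less than 90% identical to the parent over the aligned bases, 43 were higher and 117 lower, with a median log2 fold change of -0.61. In the range of 90 to 95% identity 16 were higher and 66 lower of 137, with a median of -0.51. Between 95 and 98% there were 21 higher and 54 lower of 223 (median -0.03), and at 98% or more 130 higher and 44 lower of 517 (median 0.24). In shares, 17.7% were higher and 48.1% lower under 90% identity, and 11.7% and 48.2% between 90 and 95%. Between 95 and 98% they were 9.42% and 24.2%, and at 98% or more 25.1% and 8.51%. Over all tested genes 27.0% were higher and 27.9% lower. At 98% or more the higher calls were thus near this background and the lower calls below it. The spread of log2 fold changes over members narrowed along this order, with an SD of 1.57 under 90%, 1.53, 1.09 and 0.70 at 98% or more. The median total per member was 331 counts under 90% identity, 226 and 191 in the next ranges and 426 at 98% or more. All 8 of these counts of calls stayed within 1.5 times their value in the 13 refits described in the closing section.

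Below 95% identity the shares of lower calls among processed and unprocessed members were close, and above it they were apart. Under 90% identity 79 of 161 processed members (49.1%) and 36 of 76 unprocessed members (47.4%) were lower, with medians of -0.62 and -0.51. Between 90 and 95% the lower calls were 52 of 112 processed (46.4%) and 13 of 24 unprocessed members (54.2%). Between 95 and 98% they were 44 of 201 processed (21.9%) and 10 of 22 unprocessed (45.5%), and at 98% or more 38 of 491 processed (7.74%) and 6 of 24 unprocessed (25.0%). A near-identical copy, meaning a match of at least 95% identity over at least 50% of the member in any other annotated gene, was present for 728 processed (72.9%) and 58 unprocessed members (36.7%). Without such a copy 119 of 260 processed members (45.8%) and 44 of 98 unprocessed members (44.9%) were lower, and 35 (13.5%) and 18 (18.4%) were higher. The median identity to the parent was 98.01% for processed and 89.8% for unprocessed members.

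**Figure D2:**
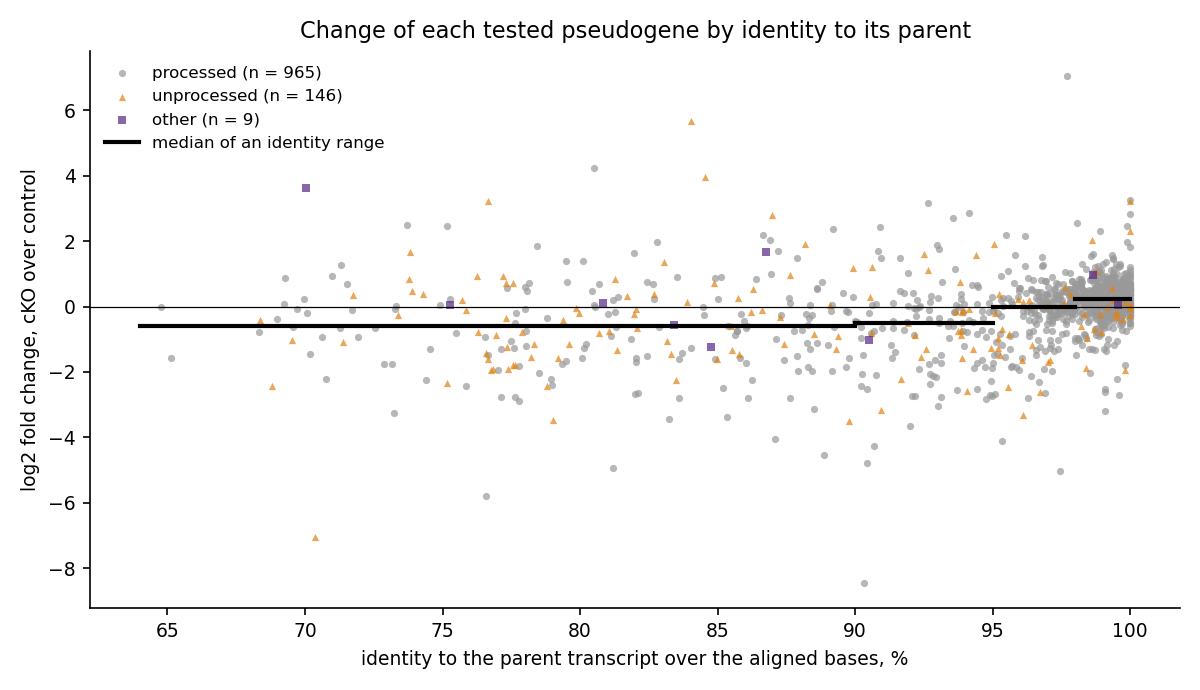
Log2 fold change of each tested member with a parent (cKO over control) against its identity to the parent in percent, for processed (circles), unprocessed (triangles) and other types (squares); black bars mark the median of an identity range. The medians step from -0.61 under 90% to 0.24 at 98% or more, and the points close in on 0 as identity grows.

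The changes of members were set beside those of their parents. Both member and parent could be tested in 605 cases. For members of 98% identity or more the Pearson correlation of the log2 fold changes of member and parent was 0.53 over 278 members of 211 parents, and 62 of the 70 pairs in which both were called had the same direction. It was 0.75 over the 107 members of this range for which 50% or more of the windows of 150 bases, the read length, occur letter for letter in another annotated gene, and 24 of 25 pairs then went the same way. Over the 168 members of this range with under 50% of windows shared it was 0.45, with 38 of 45 pairs in the same direction. The median absolute difference between member and parent was 0.26 on the log2 scale in the former set and 0.24 in the latter. Under 90% identity the correlation was 0.08 over 123 members of 88 parents, with 29 of 44 pairs in the same direction. Between 90 and 95% it was 0.37 over 71 members (19 of 24 pairs), and between 95 and 98% it was 0.16 over 133 members (11 of 16 pairs), so the values did not follow the order of identity. These correlations are across genes of the same libraries, which are not independent replicates, and they are given as a description. The median absolute difference between member and parent, in either direction, was 0.88 on the log2 scale under 90% identity and 0.25 at 98% or more.

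**Figure D3:**
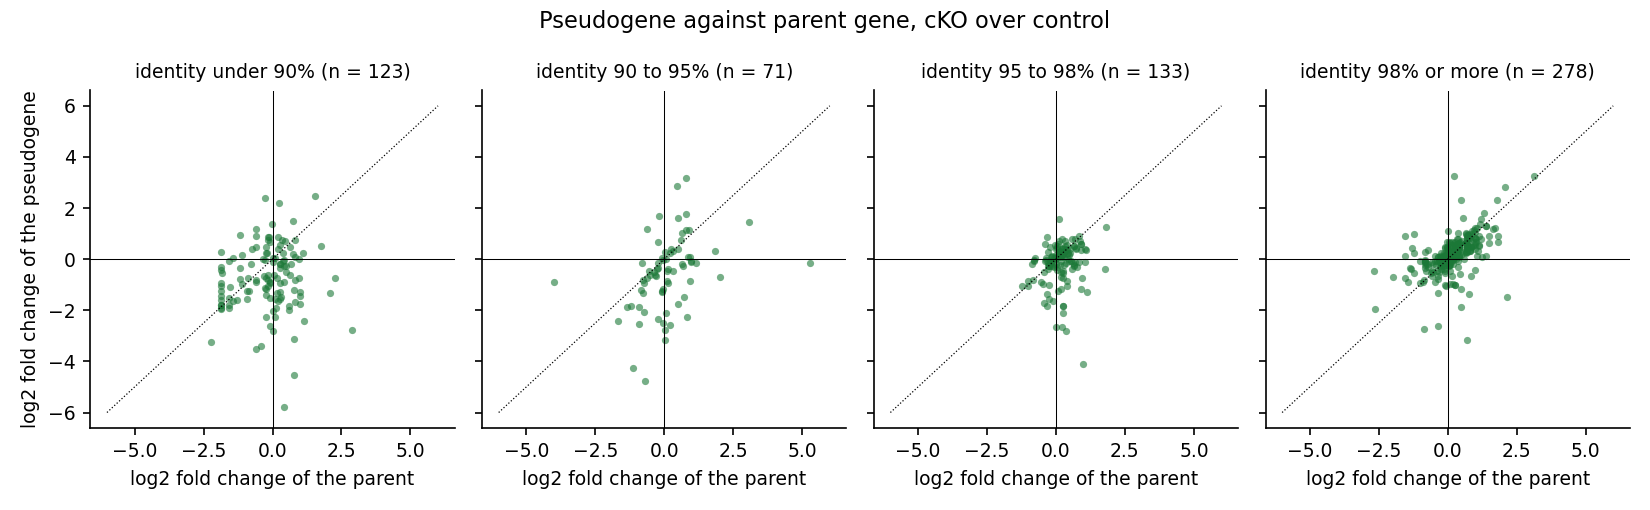
Log2 fold change (cKO over control) of a pseudogene, vertical axis, against that of its parent gene, horizontal axis, in 4 ranges of identity, with a dotted line where they are equal. At 98% or more most of the 278 points lie close to the line, while under 90% the pseudogenes spread up and down at parent values near 0.

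How far letters allow a read to be placed differs between members. For 84 members every window of 150 bases occurs in another annotated gene, and 23 of them (27.4%) were higher and 5 (5.95%) lower. For 531 members no window does, and of the 516 tested 67 (12.98%) were higher and 199 (38.6%) lower. Of all tested genes 27.0% were higher and 27.9% lower. The former set was thus close to this background in higher calls and below it in lower calls. The latter set was below it in higher calls and above it in lower calls. No read is set apart as not uniquely aligned in the deposited files, so it cannot be told apart whether such reads were removed before counting or placed on 1 of their sites. Counts of parents ranged widely. Gapdh held 4 counts in all libraries, H3f3a 6, Ppp4r1 4 and Hdac1 7, while Ubb held 48816, Tuba1b 28396 and Hmgb1 10484. A link to the ambiguous reads was not tested. Levels are therefore not compared between a member and its parent, and ratios of the 2 are compared only between the groups.

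Most of the abundant members were lower in the cKO or did not pass the test. Among the 76 members with a mean of at least 100 CPM, 36 were lower and 12 higher, against 566 lower and 462 higher of 1885 genes of that level. Gm1821 (chromosome 14, 46084028 to 46085000), a transcribed processed copy of Ubb, which encodes a ubiquitin precursor, had the most counts. It held 2459, 2477, 2319 and 2323 CPM in the control libraries and 1907, 1988, 2138 and 1925 CPM in the cKO libraries. The groups did not overlap, but the difference was small (log2 fold change -0.27, SE 0.10, adjusted p = 0.0416), and the call was lost without control replicate 1 or 2 or without cKO replicate 1, 2 or 4, where the log2 fold change was between -0.27 and -0.24 and the adjusted p between 0.0543 and 0.125. It was also lost with no filter on low counts (-0.26, adjusted p = 0.175) and with a replicate block (-0.27, adjusted p = 0.0852). Ubb itself was lower by a like amount (log2 fold change -0.25, SE 0.10, adjusted p = 0.0489), and 58.2% of the windows of Gm1821 occur in another gene.

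Gm5434 (chromosome 12, 36090379 to 36091829) resembles Ube2f, a conjugating enzyme for the ubiquitin-like NEDD8, at 93.1% identity with no shared window. It stood at 2339.7, 2188, 2083 and 2099.8 CPM in the control libraries and 373, 312, 262 and 341 CPM in the cKO libraries. Every cKO library was thus far below every control, and the cKO kept 14.8% of the control level (log2 fold change -2.76, SE 0.13, adjusted p = 2.83e-09). Ube2f had a log2 fold change of 0.03 (adjusted p = 0.883), at 18.5 ± 1.96 CPM in control and 19 ± 1.46 CPM in cKO libraries (SD, n = 4 each).

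Nlrp4g, a transcribed unprocessed member on chromosome 9 related to the oocyte NLRP gene Nlrp4f, held 1216, 1027, 1896 and 1453 CPM in the control libraries and 629.7, 540.1, 462 and 629 CPM in the cKO libraries, with no overlap (log2 fold change -1.31, SE 0.18, adjusted p = 1.78e-05). All of its counts lay on 1 exon (124348872 to 124350423). Cldn25-ps, a claudin-like processed member with no parent found by the match used here, fell from 635, 508, 519 and 645 CPM to 273, 304, 249 and 272 CPM (log2 fold change -1.07, SE 0.13, adjusted p = 5.91e-06). Gm5946, a copy of the Polycomb gene Bmi1, was lower (log2 fold change -0.71, SE 0.21, adjusted p = 0.00941) although its groups overlapped, at 609, 463, 839 and 685 CPM in the control libraries and 557, 344, 273 and 415 CPM in the cKO libraries. Bmi1 was not called (log2 fold change 0.20, adjusted p = 0.341).

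Zfp813-ps, related to the zinc finger gene Gm29106, fell from 471, 258, 476 and 523 CPM to 185, 135, 78.7 and 152 CPM (log2 fold change -1.65, SE 0.24, adjusted p = 4.41e-05), and Gm29106 fell as well (log2 fold change -1.44, SE 0.22, adjusted p = 6.45e-05). Cbx3-ps6 fell from 322, 248, 254 and 340.2 CPM to 95, 81.4, 73.9 and 87.8 CPM (log2 fold change -1.78, SE 0.15, adjusted p = 1.94e-07). It is 99.8% identical to Cbx3, which encodes a heterochromatin protein, has 8 near-identical genes and shares exonic bases with another annotated gene. Speer5-ps1 was lower with overlapping groups (adjusted p = 0.0178), and 92.2% of its counts came from a single exon of 144 bases.

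Among the 10 members of highest mean and the 8 most abundant with a symbol of their own, Gm5371 and Ccnb1-ps rose. Gm5371 (chromosome 9, 97209044 to 97210880), 80.1% identical to the pyruvate kinase gene Pkm, stood at 291, 229, 195 and 292 CPM in the control libraries and 497, 657, 773 and 692 CPM in the cKO libraries, and all cKO libraries were above all controls (log2 fold change 1.38, SE 0.16, adjusted p = 5.95e-06). Pkm showed a log2 fold change of -0.01 (adjusted p = 0.971). Ccnb1-ps, a 99.2% identical copy of cyclin B1, rose from 183, 150.1, 205 and 181 CPM to 251, 216, 224 and 244 CPM (log2 fold change 0.38, SE 0.13, adjusted p = 0.0225), and its call was lost without control replicate 1 or 2 or cKO replicate 1 or 4, with log2 fold changes of 0.29 to 0.37 and adjusted p of 0.052 to 0.0705, and under scaling on protein-coding genes (0.29, adjusted p = 0.079). BC022960, Gm12346, Gm8801 and Eif4a-ps4 were not called, with log2 fold changes of 0.05, 0.03, 0.06 and 0.22. In unscaled counts, exons of Gm8801 went in different directions. The exon at 35952188 to 35952297 held 3554 counts in controls and 5233 in the cKO. The exon at 35947466 to 35947709 held 1144 and 719.

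Gm5514, a close copy (98% identity) of the lactate dehydrogenase gene Ldhb, varied within both groups. It held 1709, 363, 1639 and 377 CPM in the control libraries and 686, 255, 276 and 881 CPM in the cKO libraries. Replicates 1 and 3 of the controls and 1 and 4 of the cKO were high, the others low, and the groups overlapped (log2 fold change -0.96, SE 0.49, adjusted p = 0.112). It was called lower without control replicate 2 or 4 or cKO replicate 4, at log2 fold changes of -1.25 to -1.32 and adjusted p of 0.0334 to 0.0474, and with no filter on low counts (-0.96, adjusted p = 5.82e-10). Ldhb itself stood at 135, 150.3, 128 and 129 CPM in the control libraries and 149, 149, 123 and 151 CPM in the cKO libraries and did not show this split.

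**Figure D4:**
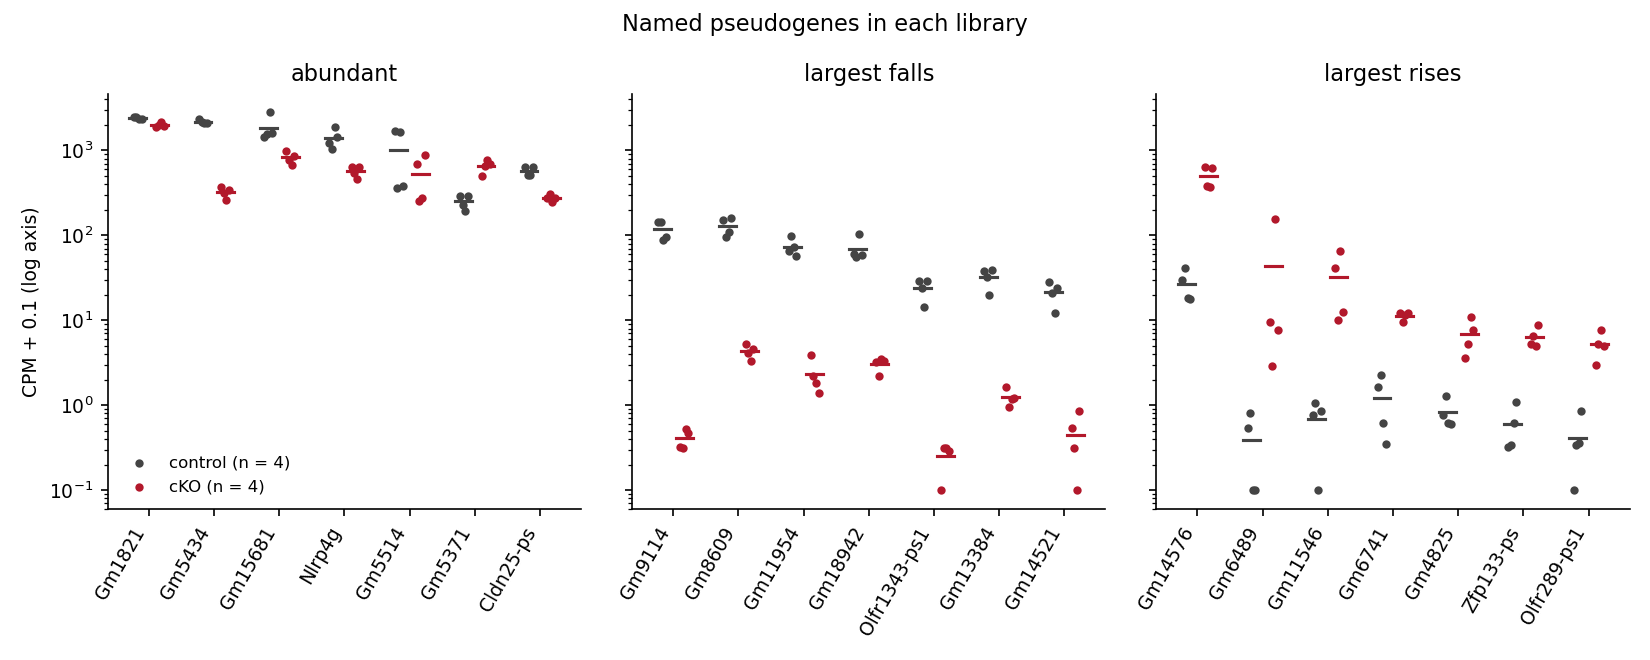
CPM plus 0.1, on a log axis, of 21 named members in each library (points; control in grey, cKO in red, n = 4 each) with the group mean as a bar, for abundant members, large falls and large rises. Points of the 2 groups are apart for every member drawn except Gm5514, and Gm6489 has 1 cKO library at 155 CPM against 2.76 to 9.53 CPM in the others.

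The largest falls among called members with at least 5 CPM in controls and separate groups left between 0.264% and 7.87% of the control mean. Gm9114 (chromosome 7, 31744189 to 31745185), a copy of Gapdh, held 142, 145, 88.6 and 94.8 CPM in the control libraries and 1, 1, 2 and 2 counts in the cKO libraries, a ratio of group counts of 381 with a 95% interval of 175 to 1039 that covers counting error only (exact binomial; log2 fold change -8.43, SE 0.32, adjusted p = 8.57e-10). Gm9114 is 99.6% identical to another annotated gene, Gm9146, and 59.1% of its windows occur in other genes. Olfr1343-ps1, an unprocessed olfactory receptor pseudogene, fell from 29.3, 23.9, 14.2 and 28.5 CPM to 3 counts in all cKO libraries, a ratio of 155 (53 to 757, log2 fold change -7.03, SE 0.44, adjusted p = 1.63e-08). Gm14521, 76.6% identical to the elongin B gene Elob, fell from 28.2, 21.1, 12.1 and 24 CPM to 0.443, 0.212, 0 and 0.749 CPM (log2 fold change -5.78, SE 0.45, adjusted p = 1.17e-07), and Elob was not called (adjusted p = 0.178).

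Gm8609 (chromosome 16, 39934002 to 39934999), a more diverged Gapdh copy at 81.2% identity with no shared window, fell from 150.2, 96, 111 and 160.1 CPM to 5.10, 4.04, 3.22 and 4.49 CPM, 3.26% of the control level (log2 fold change -4.93, SE 0.23, adjusted p = 2.47e-09). Gm11954, a copy of the ubiquitin-conjugating enzyme gene Ube2l3, fell from 65.7, 97.4, 72.1 and 56.3 CPM to 3.77, 2.12, 1.72 and 1.31 CPM (log2 fold change -5.03, SE 0.29, adjusted p = 8.52e-09). It is 97.4% identical to Ube2l3 and has 7 near-identical genes, with no shared window. Gm18942, a diverged copy of the mitochondrial fission regulator Mtfr2, fell from 59.4, 56, 103 and 58.8 CPM to 3.10, 2.12, 3.44 and 3.18 CPM (log2 fold change -4.53, SE 0.26, adjusted p = 8.79e-09), while Mtfr2 rose (log2 fold change 0.79, SE 0.22, adjusted p = 0.00606). The other falls of the rule were Gm13384 of Traip (-4.79), Atp5c1-ps of Atp5c1 (-4.25), Gm4796 of Rps6 (-4.10) and Gm8529 of Gapdh (-3.65 on the log2 scale), each with groups that did not overlap. Gm13384 shares exonic bases with another annotated gene, Gm10857, and all of its counts lay on 1 exon of 258 bases. Traip was lower too, by less (log2 fold change -0.71, SE 0.27, adjusted p = 0.039). Atp5c1, the gamma subunit of ATP synthase, fell less than its pseudogene, by 1.15 on the log2 scale (adjusted p = 0.000385).

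Among the 10 largest rises by the same rule, Gm14576 had the highest level in CPM. This processed member on chromosome X (40927001 to 40928111), 80.5% identical to the zinc finger gene Zpr1, stood at 29.9, 40.7, 18.4 and 17.5 CPM in the control libraries and 646, 379, 369.5 and 614 CPM in the cKO libraries, an 18.8-fold higher mean (log2 fold change 4.23, SE 0.28, adjusted p = 2.52e-08). Zpr1 held 49 counts over all libraries and was not tested. Gm6489 had the largest fitted change (log2 fold change 7.04, SE 1.46, adjusted p = 0.00081) with 1 cKO library far above the rest. It held 0.444, 0.718, 0 and 0 CPM in the control libraries and 9.53, 2.76, 155 and 7.68 CPM in the cKO libraries. Without cKO replicate 3 its log2 fold change was 4.32 (adjusted p = 0.000142), and without control replicate 2 it was 7.83.

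Gm11546, an unprocessed member related to Tmem92 and 97.2% identical to the pseudogene AA623943, held 0.665, 0.957, 0 and 0.75 CPM in the control libraries and 40.8, 9.99, 65.8 and 12.4 CPM in the cKO libraries (log2 fold change 5.67, SE 0.73, adjusted p = 1.17e-05). Its cKO libraries differed widely among themselves, and all lay above all controls. Gm6741, with the same letters as Nanp over its whole length, rose from 1.55, 2.15, 0.526 and 0.25 CPM to 12, 9.56, 11.4 and 12.2 CPM (log2 fold change 3.27, SE 0.37, adjusted p = 3.8e-06). Nanp, a sugar phosphatase gene, rose alike (log2 fold change 3.13, adjusted p = 3.78e-06), and reads that lie within the stretch the 2 genes share cannot be told apart by letters. Zfp133-ps, a transcribed unitary member of 9 exons, rose from 0.222, 0.239, 0.526 and 1.00 CPM to 5.10, 6.37, 4.94 and 8.61 CPM (log2 fold change 3.62, SE 0.43, adjusted p = 5.26e-06).

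The remaining rises of the rule were Olfr289-ps1 (3.95), Gm4825 of Rpl27 (3.17), Gm11855 of the mismatch repair gene Msh6 (2.86), Gm17177 (2.81) and Gm16519 of Rpl12 (2.70). Their control means were 0.313 to 0.907 CPM and their cKO means 5.09 to 6.77 CPM, without overlap in any of them. Rpl27 rose too, by less (log2 fold change 0.80, SE 0.22, adjusted p = 0.00553). Leaving out 1 library moved the fold by over 1.5 times for 5 of the 37 called members of the rule, namely Gm6489, Gm11546 (5.03 without cKO replicate 3), Olfr289-ps1 (4.76 without control replicate 4), Gm14521 (-6.44 without cKO replicate 4) and Gm4796 (-4.75 without cKO replicate 4).

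Gm15681, Gm7162, Gm16574, Gm10093 and Kif4-ps have a parent among the genes known to be paired with pseudogene-derived endo-siRNAs in oocytes. The Ppp4r1 copy Gm15681 held 1427, 1561, 2802 and 1606 CPM in the control libraries and 978, 778, 679 and 868 CPM in the cKO libraries. The groups did not overlap and the cKO kept 44.7% of the control level (log2 fold change -1.16, SE 0.19, adjusted p = 0.000135), while control replicate 3 stood above the other controls. Cdh8, in whose body it lies on the same strand, fell from 13.3, 14.4, 16.6 and 13.3 CPM to 1.11, 2.55, 0.645 and 1.69 CPM (log2 fold change -3.23, SE 0.31, adjusted p = 6.45e-07). Ppp4r1 could not be tested.

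The inverted Rangap1 pair fell together. Gm7162 went from 7.32, 11.5, 14.2 and 7.25 CPM to 1.77, 3.61, 2.15 and 3.56 CPM (log2 fold change -1.83, SE 0.31, adjusted p = 0.000162) and Gm16574 from 3.33, 5.03, 3.16 and 5.25 CPM to 0.886, 1.27, 0.645 and 1.31 CPM (log2 fold change -1.98, SE 0.35, adjusted p = 0.000224), without overlap in either. The matched part of Gm16574, 47.5% of it, is 91.5% identical to Gm7162. Both lie in the body of the noncoding gene Airn, which did not pass the test (log2 fold change -0.04, SE 0.18, adjusted p = 0.868). Rangap1, which activates the Ran GTPase at the nuclear pore, was not called (log2 fold change 0.60, SE 0.35, adjusted p = 0.166). The log2 ratio of counts, with 0.5 added to each, of Gm7162 to Rangap1 was 1.73 ± 1.08 in controls and -0.74 ± 0.869 in the cKO (SD, n = 4 each; exact two-sided permutation p = 0.0286, adjusted over 3 ratios 0.0429). For Gm16574 it was 0.51 ± 0.891 and -2.07 ± 0.873 with the same exact permutation p of 0.0286, the smallest that 4 against 4 libraries can give. These ratios rest on few counts, at most 54 in a library for Gm7162 and 21 for Gm16574.

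Gm10093, 99.4% identical to the histone deacetylase gene Hdac1, rose from 3.11, 3.35, 5.26 and 2.75 CPM to 7.75, 9.35, 13.1 and 10.5 CPM (log2 fold change 1.5, SE 0.27, adjusted p = 0.000253), and 54.4% of its windows occur elsewhere. Kif4-ps, 79.5% identical to the kinesin gene Kif4, stood at 2.88, 2.39, 4.47 and 3.75 CPM in the control libraries and 5.98, 2.76, 7.74 and 6.18 CPM in the cKO libraries and was not called (log2 fold change 0.75, SE 0.33, adjusted p = 0.0658). It was called higher without control replicate 3 (0.91, adjusted p = 0.0452) or cKO replicate 2 (0.99, adjusted p = 0.0132). Its ratio to Kif4 did not differ beyond the spread (exact two-sided permutation p = 0.429). Of the genes of the siRNA pathway, 7 of 8 could be tested. Ago1, Ago3, Ago4 and Adar rose (log2 fold changes 3.96, 0.69, 1.04 and 1.35), Dicer1 and Ago2 fell (-0.55 and -1.84), and Prkra was not called (0.13). Of 8 tested genes of nonsense-mediated decay 3 rose and 1 fell, and of 4 tested genes of the nuclear exosome and its adaptors 1 rose, against 27.0% and 27.9% of all tested genes.

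Of 16 parents with 6 or more members, the families of Gapdh, H3f3a, Hmgb1 and Rps6 are described here and were chosen after their values were seen. Of the 14 with tested members on both sides of 98% identity, 7 had a lower call below 98% and none at 98% or more. Among these 7, Rplp0 and Rpl7a also had higher calls below 98% (2 and 1), and the other 5 had none. Rpl6, Rpl12 and Rpl29 had a lower call at 98% or more, and Rpl17, Rpl35a and Dnajb6 had no call in either range. Of 12 Gapdh pseudogenes 11 were tested. Besides Gm9114, Gm8609 and Gm8529, Gm2076 fell from 79.4, 99.6, 85.7 and 67.3 CPM to 13.1, 9.99, 6.88 and 10.5 CPM (log2 fold change -3.04, SE 0.21, adjusted p = 3.14e-08) and Gm26509 by 1.47 on the log2 scale (adjusted p = 4.95e-05). The copies at 99.9% identity went the other way. Gm5559 rose from 0.665, 0.718, 1.05 and 1.25 CPM to 3.77, 3.4, 3.65 and 3.93 CPM (log2 fold change 1.98, SE 0.34, adjusted p = 0.000151), and Gm13394, with overlapping groups of 9.76, 28.2, 1.58 and 1.25 CPM in the control libraries and 31.2, 2.12, 106 and 87.6 CPM in the cKO libraries, was called higher (log2 fold change 2.46, SE 0.85, adjusted p = 0.0225). The call of Gm13394 was lost in DESeq2 (adjusted p = 0.115), with a replicate block (adjusted p = 0.0627) and without control replicate 1, 3 or 4 or cKO replicate 3 or 4 (log2 fold changes 1.95 to 2.42, adjusted p of 0.0509 to 0.0881), and without control replicate 2 its log2 fold change was 3.68 (adjusted p = 0.00415). The remaining Gapdh copies tested, Gm12684, Gm4823, Gm8492 and Gm6981, were between -0.15 and 0.67 on the log2 scale and not called, though Gm6981 was called higher without control replicate 3 (1.01, adjusted p = 0.0218).

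All 7 copies of H3f3a, the gene of histone H3.3, at 98% identity or more were not called, with log2 fold changes of 0.01 to 0.42. The lower end of this range was -0.08 under scaling on protein-coding genes and -0.21 without control replicate 2. Of the 8 copies below 98%, 6 were lower, and the median over these 8 was -0.97. With 1 library left out 5 of the 8 were called lower, except without control replicate 3, where 6 were. Gm48458, for example, fell from 26.8, 26.6, 19.7 and 25.8 CPM to 10.2, 10.6, 7.09 and 7.49 CPM (log2 fold change -1.48, SE 0.21, adjusted p = 2.47e-05) and Gm48110 from 59.7, 41.9, 28.9 and 55 CPM to 22.2, 17.8, 15.3 and 15.2 CPM (log2 fold change -1.40, SE 0.23, adjusted p = 0.000102). For Hmgb1, which encodes a chromatin protein, the 7 copies at 98% or more had log2 fold changes of 0.35 to 0.64, with 4 called higher, beside 0.40 for Hmgb1 itself (adjusted p = 0.032). Without control replicate 2, without cKO replicate 3 and under scaling on protein-coding genes 2 of them were called. Hmgb1-ps4, at 97.1% identity and the most abundant of them, fell from 201, 299, 220.2 and 191 CPM to 122, 109, 95.4 and 117 CPM (log2 fold change -1.04, SE 0.16, adjusted p = 5.41e-05). The other copies below 98%, Hmgb1-ps1 at 96% and Gm10075 at 98% identity, had log2 fold changes of 0.57 and 0.40 and were not called.

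Rps6, a ribosomal protein gene, rose (log2 fold change 0.98, SE 0.20, adjusted p = 0.000855). Of its 6 copies at 98% identity or more 4 rose, among them Rps6-ps4, whose every window occurs elsewhere (62.3, 64.4, 49.5 and 70.8 CPM to 84.4, 104, 109 and 92.3 CPM, log2 fold change 0.66, SE 0.15, adjusted p = 0.00193), and Rps6-ps1 and Rps6-ps3 were not called. Without control replicate 1 and in DESeq2, 2 of the 6 were called higher. The 4 copies below 98% all fell, by 1.29 to 4.10 on the log2 scale. Gm12149 was one of them, at 24.2, 16, 21.6 and 28 CPM in the control libraries and 7.98, 4.67, 6.66 and 6.93 CPM in the cKO libraries (log2 fold change -1.77, SE 0.23, adjusted p = 1.47e-05).

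**Figure D5:**
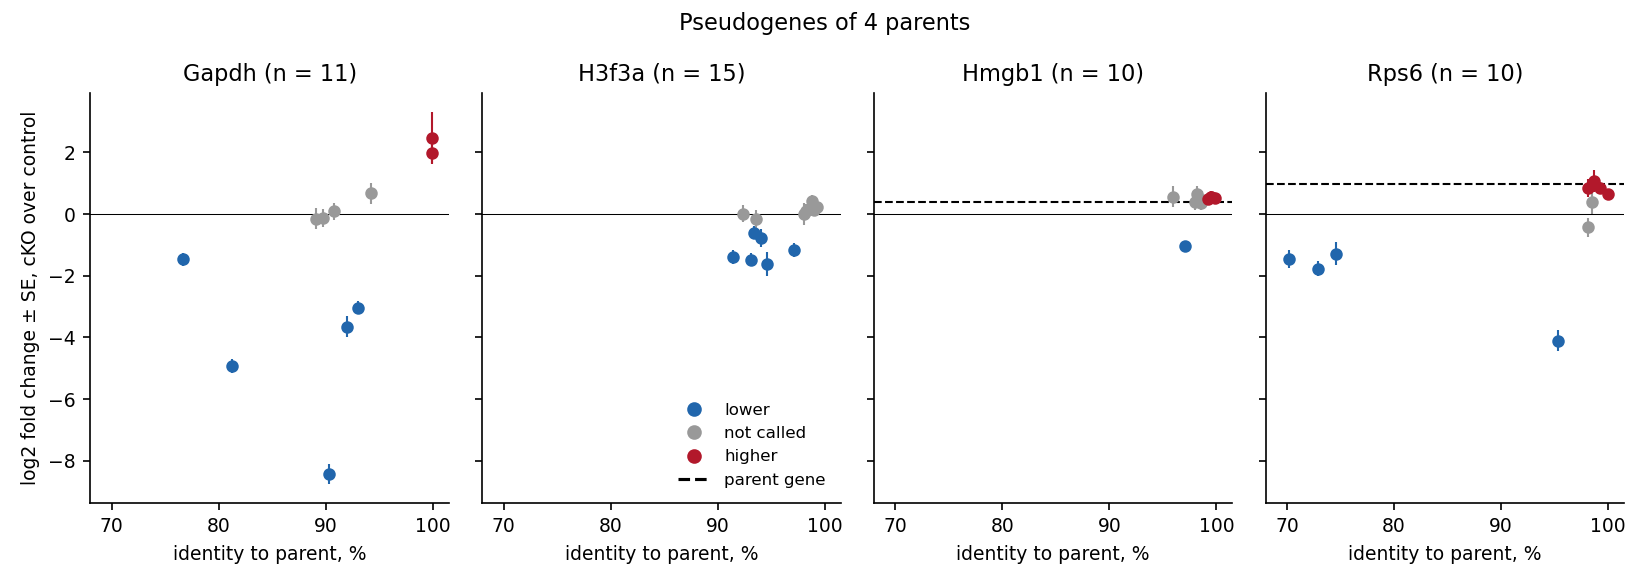
Log2 fold change with its SE (cKO over control) of the tested pseudogenes of Gapdh, H3f3a, Hmgb1 and Rps6 against identity to the parent in percent, with the fold change of the parent as a dashed line where it could be tested. Points below 0 and called lower (blue) lie at 97.1% identity or less in all 4 panels, and points called higher (red) at 98.1% or more.

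Ribosomal protein genes were the parents of 239 members, and 53 rose and 45 fell of the 236 tested, which is 41.5% called (22.5% higher and 19.1% lower) beside 54.9% of all tested genes (27.0% and 27.9%). Under 90% identity 18 of 33 were lower and 6 higher, and at 98% or more 9 of 143 were lower and 40 higher. Gm9535, a copy of Rpl7a at 83.2% identity named after its values were seen, fell from 249, 184, 169.9 and 257 CPM to 22.2, 22.7, 14.2 and 21 CPM (log2 fold change -3.42, SE 0.20, adjusted p = 8.52e-09).

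Some members, named after their values were seen, lie in clusters of duplicated genes. On chromosome 6, 12 members on the same strand between 130483189 and 131182379 have Gm19965 on chromosome 1 as their best coding match, at 76.5% to 87.3% identity. Of these 8 were lower (66.7%, beside 27.9% of all tested genes) and none higher (beside 27.0%), with log2 fold changes of -1.95 to 0.30. Gm44133 held 532, 296, 586 and 522 CPM in the control libraries and 312, 163, 158 and 193 CPM in the cKO libraries (log2 fold change -1.23, SE 0.23, adjusted p = 0.000367), and Gm33962 held 466, 328, 466 and 475 CPM in the control libraries and 256, 106, 157 and 128 CPM in the cKO libraries (log2 fold change -1.42, SE 0.23, adjusted p = 8.5e-05). The groups overlapped in Gm44133 and not in Gm33962, and control replicate 2 was the lowest control in both. Gm44527 was also lower (log2 fold change -1.60, SE 0.30, adjusted p = 0.000388) with control replicate 2 below cKO replicate 1, at 476, 195, 556 and 529.6 CPM in the control libraries and 208, 141, 77.4 and 153 CPM in the cKO libraries. Gm19965 also fell (log2 fold change -1.87, SE 0.32, adjusted p = 0.000167). In the Nlrp4 cluster of chromosome 9, Gm47182 fell from 262, 218, 352 and 329 CPM to 181, 171, 141 and 175 CPM (log2 fold change -0.80, SE 0.16, adjusted p = 0.000569), close to Nlrp4f, which lies on chromosome 13 (log2 fold change -0.77, SE 0.20, adjusted p = 0.00434), and Gm47180 was not called. On chromosome 1, beside Gm6489 and like it processed, Gm4850 rose from 5.10, 3.83, 5.79 and 7.75 CPM to 27.9, 14.7, 20.9 and 56.7 CPM (log2 fold change 2.42, SE 0.38, adjusted p = 7.44e-05) and Gm28645 was called higher with overlapping groups (log2 fold change 1.47, SE 0.50, adjusted p = 0.0203). The call of Gm28645 was lost without control replicate 1 or cKO replicate 3 or 4, with log2 fold changes of 0.88 to 1.40 and adjusted p of 0.0504 to 0.121. Cyp2c53-ps, a transcribed unprocessed cytochrome P450 member on chromosome 19 that shares exonic bases with another gene, fell from 152, 123, 129 and 217 CPM to 14, 10.6, 9.89 and 21.5 CPM (log2 fold change -3.46, SE 0.26, adjusted p = 6.87e-08).

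Of the 16 members of other types 4 were higher and 8 lower (25.0% and 50.0%, beside 27.0% and 27.9% of all tested genes). All 4 immunoglobulin variable segment pseudogenes were called, 3 lower and 1 higher, where 54.9% of all tested genes were called. The following of these were named after their values were seen. Ighv1-46 fell from 109.6, 93.8, 53.7 and 119.6 CPM to 19.1, 18.3, 15.9 and 21.7 CPM (log2 fold change -2.33, SE 0.23, adjusted p = 8.46e-07), and its neighbour Ighv1-44 on chromosome 12 rose from 9.54, 10.5, 6.05 and 17 CPM to 32.3, 34.4, 31.4 and 49.4 CPM (log2 fold change 1.77, SE 0.26, adjusted p = 4.74e-05). Igkv13-87, the most abundant of this type and named by the rule, was lower by 0.52 on the log2 scale (adjusted p = 0.011). The T-cell receptor segment Trav13-3, also named after its values were seen, fell as well (log2 fold change -2.19, SE 0.23, adjusted p = 1.8e-06). Of 7 polymorphic members 2 were higher and 3 lower (71.4% called, beside 54.9% of all tested genes). The most abundant of them, Olfr650-ps1, an olfactory receptor, fell from 171, 141, 149.9 and 166 CPM to 106, 89.7, 107 and 122 CPM (log2 fold change -0.56, SE 0.14, adjusted p = 0.00278). The unitary member 4930519F16Rik fell from 17.3, 14.1, 13.7 and 18.3 CPM to 7.75, 9.56, 9.24 and 9.92 CPM (log2 fold change -0.79, SE 0.20, adjusted p = 0.00308).

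Members that overlap the body of another gene can also take up its unspliced RNA, since the libraries do not mark strand. Of 335 tested members in another gene body 60 were higher and 66 lower (37.6% called). Of 812 outside any other gene 153 were higher and 226 lower (46.7% called). Both shares were below the 54.9% of all tested genes. The correlation between the log2 fold changes of a member and its protein-coding host was -0.09 over 52 members on the strand of the host and 0.25 over 82 on the opposite strand, again only as a description.

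In structure, 909 of the 999 processed members have a single exon against 36 of the 158 unprocessed members, and the median exonic lengths are 615 and 963 bases. The letters GGACT, a sequence in which m6A is often placed, searched on the transcript strand only, occurred 0.879 times per kb in the members, 0.908 times in all 13523 pseudogenes of the annotation and 1.06 times in the longest transcripts of all 21951 protein-coding genes. Per kb there were 0.80 in processed members that rose, 0.83 in those that fell and 0.88 in those not called. In unprocessed members the values were 1.33, 0.85 and 1.07. These densities are a description of letters and not of sites.

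Members near the threshold carried little signal. Gm13092 and Gm13642, each with 80 counts in all, were just inside it, with 5 to 11 and 7 to 14 counts in control libraries and 10 to 17 and 7 to 19 in cKO libraries. Rps15a-ps3 and Ywhaq-ps3, with 79 counts each, were just outside, with 4 to 13 and 7 to 15 counts in control libraries and 10 to 16 and 5 to 12 in cKO libraries.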

How the data were processed

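RNA of 4 control and 4 cKO libraries of GV oocytes was sequenced, per the labels' protocols from oligo-dT primed cDNA made by template switching and cut by tagmentation, a method that does not mark strand. Raw read counts per exon ID were deposited by the authors, 1 file per library, as whole numbers with no normalization. The submitters' processing notes list STAR and HTSeq, with versions not given in the sources used here, and mm10 as the build. Of 496288 exon IDs 99.6% matched GENCODE M21 with ID versions ignored, and counts on the others (0.252%) and the summary rows were left out. Counts were summed per gene, which gave 4235691 to 5052551 per library.

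Genes were filtered with filterByExpr (minimum count 10) and fitted in edgeR 4.0.16 (glmQLFit and glmQLFTest, the quasi-likelihood test, two-sided) with TMM scaling, and p-values were adjusted by Benjamini-Hochberg over all 10673 tested genes. DESeq2 1.42.0 was an alternative, and the fit was tested on simulated data. Parents and near-identical copies were found with BLAST+ 2.17.0 against GENCODE M21 transcripts (e under 1e-10, at least 100 aligned bases). Copies outside the annotation were not searched. Sequences are from the same transcripts. The members and lists were chosen with earlier results of these data known. Members named are the 10 of highest mean CPM, the 10 largest rises and 10 largest falls among called members with at least 5 CPM in the higher group and groups that do not overlap, the most abundant of each type with at least 3 members, those with a parent on the endo-siRNA list, the 8 most abundant with symbols of their own, and the 2 on each side of the threshold. All others named in the text were chosen after their values were seen.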

Additional observations from a re-analysis of the deposited data

Results flagged for a closer look

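In 4 of 90 groups of 4 libraries tested among named members, 1 library lay far from the other libraries of its group by Dixon's criterion, which chance alone reaches in about 1 in 20 groups. Gm15681 stood at 2802.1 CPM in control replicate 3, and at 1427 to 1606 CPM in the other controls. Gm18942 stood at 103.109 CPM in the same library, and at 56.01 to 59.4 CPM in the other controls. Gm6489 stood at 154.772 CPM in cKO replicate 3, and at 2.76 to 9.53 CPM in the other cKO libraries. Olfr1343-ps1 had 0 counts in cKO replicate 1 and 1 count in each of the others, which is 0.187 to 0.215 CPM.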

How the results depend on the processing

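Counts of called members kept within 1.5 times of the main counts under RLE scaling (213 higher, 293 lower), scaling on protein-coding genes (183 and 319, where the median of all genes shifted by -0.087), no filter on low counts (202 and 290), DESeq2 (182 and 269) and members outside other gene bodies. With a replicate block 203 were higher and 282 lower, and 478 of the 505 calls were shared; deviations of same-numbered libraries correlated at 0.111, -0.056, 0.102 and 0.060, so the numbers were not shown to pair libraries. Restricted to members without a near-identical copy, 56 were higher and 170 lower of 371 tested (15.1% and 45.8%, beside 18.6% and 25.5% of all tested members), of which 35 and 119 were processed and 18 and 44 unprocessed. With at least 160 counts, 16 unprocessed members were higher. The difference in the processed share of counts, -0.333 percentage points, was -0.0193 without the 5 members of most counts.

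Leaving out 1 library gave 183 to 215 higher and 264 to 293 lower members, 153 to 187 and 197 to 223 processed, and 23 to 27 and 56 to 66 unprocessed members. It gave 2602 to 3068 higher and 2764 to 3018 lower of all genes, and share differences of -0.374 to -0.271 (processed) and -0.298 to -0.234 (unprocessed). Of 43 named members 39 kept their call in every refit that gave an adjusted p. BC022960, Gm12346 and Gm8801 stayed not called, but their log2 fold changes went from -0.07 to 0.16, -0.10 to 0.08 and -0.06 to 0.24. Gm1821, Ccnb1-ps, Gm5514 and Kif4-ps changed call in at least 1 refit, and no call reversed; the cause was not tested. DESeq2 gave no adjusted p for Gm6489. The refits of counts by identity range, of families and of members named after their values were seen were chosen after seeing the data.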
